A study of Mus musculus with 7 samples.

Results

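Pole, Pold1, Tk1 and Rfc5 are genes of DNA replication, taken here as every probe whose single annotated symbol is 1 of these 4. Each of the 4 genes had 1 probe, so the set held 4 of 20355 probes and 4 of the 9930 genes that were named by a probe with 1 symbol. With 1 probe a gene, agreement between probes of a gene could not be examined. The genes were chosen because their values had already been seen to be lower at 10 h than at 3 h in these data. The 3 h and 10 h values and their difference are therefore given as a description with no test. The rule had no numerical threshold.

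The cells were NIH3T3, an immortalised line of mouse embryonic fibroblasts, overexpressing Acid1 and sampled 3 h and 10 h after treatment. Each of 7 arrays carried RNA of treated fibroblasts in 1 fluorescent dye and RNA of non-treated fibroblasts in the other. At 3 h there were 4 arrays, replicates 1 and 2 with the treated sample in Cy5 and replicates 3 and 4 with it in Cy3. At 10 h there were 3 arrays, replicates 1 and 2 with the treated sample in Cy5 and replicate 3 with it in Cy3. The labels say neither what the treatment was, nor what Acid1 stands for, nor whether the non-treated cells carried the Acid1 construct. The extraction and labelling texts speak of organs and of a pool of control animals, while the source names give fibroblasts for both channels, and the source names were followed. Whether replicate arrays stand for separate cultures is not stated, so each p-value reflects array-to-array spread that could be purely technical.

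The values were taken as log2 ratios with treated cells in the numerator and non-treated cells in the denominator. The labels do not state that direction. If the ratios are instead Cy5 over Cy3, the sign of the 3 arrays with the treated sample in Cy3 has to be turned, and the difference between the times under that reading is given beside the main one for each gene. A ratio carries no level, so neither the abundance of these transcripts nor the presence of fibroblast markers in the cells could be checked. RNA was taken from whole cultures, so fewer cells that are copying their DNA and less RNA of a gene per cell cannot be told apart.

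DNA polymerases copy each strand from a primer, held on the template by a ring-shaped clamp that a clamp loader opens and closes. Polymerase epsilon, whose catalytic subunit is Pole, extends mainly the leading strand. Polymerase delta, whose catalytic subunit is Pold1, extends mainly the lagging strand. Rfc5 is a small subunit of replication factor C, which loads the clamp, Pcna. Tk1, the cytosolic thymidine kinase, makes thymidine monophosphate from thymidine and so supplies a DNA precursor by salvage. Transcription of many replication genes rises as cells enter S phase, under E2F factors, and serum-starved fibroblasts are a standard setting in which this is studied.

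The promoters show which letters known for this kind of control lie near the starts of the genes. RefSeq promoter windows of build GRCm38.p6 were matched for 3 of the 4 genes, Pold1, Tk1 and Rfc5. They run from 250 bases before to 50 bases after the start, and the 250 bases before it are printed here, 5′ to 3′. All 3 genes lie on the minus strand. Pold1 is at chr7:44548816-44549065, Tk1 at chr11:117826015-117826264 and Rfc5 at chr5:117389024-117389273. Capitals mark GC boxes, GGGCGG on either strand.
Pold1: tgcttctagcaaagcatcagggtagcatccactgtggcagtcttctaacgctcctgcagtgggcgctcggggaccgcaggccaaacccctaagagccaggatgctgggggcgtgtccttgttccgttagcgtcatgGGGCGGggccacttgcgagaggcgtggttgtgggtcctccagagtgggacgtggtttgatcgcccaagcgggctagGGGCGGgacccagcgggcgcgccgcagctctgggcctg
Tk1: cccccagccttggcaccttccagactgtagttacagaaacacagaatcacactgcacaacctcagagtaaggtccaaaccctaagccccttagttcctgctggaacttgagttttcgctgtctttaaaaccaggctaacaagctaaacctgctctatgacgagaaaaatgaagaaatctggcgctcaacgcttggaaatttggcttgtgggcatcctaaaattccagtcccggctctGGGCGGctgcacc
Rfc5: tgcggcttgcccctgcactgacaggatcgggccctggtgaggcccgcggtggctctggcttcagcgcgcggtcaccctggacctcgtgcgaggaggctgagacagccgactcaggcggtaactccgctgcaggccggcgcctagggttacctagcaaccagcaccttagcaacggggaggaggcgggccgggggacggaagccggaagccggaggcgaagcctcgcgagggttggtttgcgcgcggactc
The Pold1 promoter held GC boxes beginning at positions -114 and -38, counted back from the start, and that of Tk1 held 1, beginning at position -13. In the 300-base windows, 35.7% of all 32851 RefSeq promoters held this motif. The E2F letters searched were TTTCCCGC, TTTGGCGC, TTTCGCGC and TTTGCCGC, on both strands, and 2.26% of all windows held at least 1 of them. Among the 3 genes, Pold1 held a match, read on the opposite strand and beginning at base 40 after the start. It overlapped no GC box and is in capitals in the 30 bases of chr7:44548766-44548795.
Pold1 site: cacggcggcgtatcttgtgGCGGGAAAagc
The CCAAT box, CCAAT, was in 37.4% of all windows and the TATA box, TATAAA, in 13.6%, and neither was in the windows of these 3 genes. These matches describe letters only, and no binding was measured.

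Pole, the catalytic subunit of the leading-strand polymerase, had, of the 4 genes, the values farthest apart between the times relative to their spread. At 3 h its log2 ratio was 1.565 on replicate 2, 1.219 on replicate 3 and 0.520 on replicate 4. Replicate 1 held 17.06, a value repeated on 1177 probes of that array, and was treated as not measured. At 10 h the log2 ratio was -0.141, -0.552 and -0.861 on replicates 1, 2 and 3. All 3 measured arrays at 3 h were above 0 and all 3 at 10 h were below 0, so the times did not overlap. The gap was 0.661 between the lowest 3 h and the highest 10 h array. That lowest 3 h value, 0.520 on replicate 4, was the most common value of its array, held by 1792 probes. It is taken below as the ratio 1 to 1. The mean log2 ratio was 1.10 ± 0.53 (SD, n = 3) at 3 h, a ratio of 2.15, and -0.52 ± 0.36 (SD, n = 3) at 10 h, a ratio of 0.698.

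Pole was lower at 10 h in the deposited values of both dye orientations. With the treated sample in Cy5 the difference of 10 h less 3 h was -1.91, from 1 array at 3 h and 2 at 10 h. With it in Cy3 the difference was -1.73, from 2 arrays at 3 h and 1 at 10 h. The fit over all 7 arrays, which holds a mean for each time and a dye term, gave a difference of -1.82 ± 0.46 (SE). Read as Cy5 over Cy3 the same arrays gave -0.090 ± 0.873 (SE), with fitted values of 0.044 at 3 h and -0.046 at 10 h in place of 1.20 and -0.62, since the Cy3 arrays then count with the opposite sign. Thus the size of the difference in Pole rests on the assumed direction of the ratios.

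Pold1, the catalytic subunit of the lagging-strand polymerase, was measured on all 7 arrays and differed less. Its log2 ratio at 3 h was 0.186, 0.010, 0.160 and 0.672 on replicates 1 to 4. At 10 h it was -0.571, -0.475 and -0.034 on replicates 1 to 3. The 4 arrays at 3 h were above 0 and the 3 at 10 h below 0, but replicate 2 at 3 h and replicate 3 at 10 h were only 0.044 apart. The mean log2 ratio went from 0.26 ± 0.29 (SD, n = 4), a ratio of 1.19, to -0.36 ± 0.29 (SD, n = 3), a ratio of 0.779. The difference was -0.62 with the treated sample in Cy5 and -0.45 with it in Cy3. The fitted difference was -0.55 ± 0.36 (SE), and read as Cy5 over Cy3 it was -0.193 ± 0.427 (SE).

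Over the 11559 probes in the fit, 546 probes, or 4.72%, had every 10 h array below every 3 h array, as Pole and Pold1 did, and 1141 probes, or 9.87%, had every 10 h array above. The narrower pattern of Pole and Pold1, above 0 on every measured 3 h array and below 0 on every measured 10 h array, was found for 178 probes, or 1.54%. The genes were picked on this contrast, so these shares are given beside the count of 2 of 4 and nothing is read from it. The sharper pattern also moves with the scaling of the arrays. Each array's constant was its most common value apart from the repeated extreme value. With it taken off, the fitted 3 h value of Pold1 was -0.006 and its difference -0.244, while the difference of Pole was -1.70. Pole was then at 1.378, 1.322 and 0.000 on replicates 2 to 4 at 3 h. At 10 h it was at 0.414, -0.152 and -1.493 on replicates 1 to 3, so its times overlapped. Those of Pold1 overlapped too, with -0.264 at 3 h and -0.016 at 10 h on the arrays numbered 1. Neither gene kept the pattern. In that scaling the median of all probes was -0.424 at 3 h and the median difference was 0.465, against -0.149 and 0.143 for the deposited values, so the shift applies to all probes.

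**Figure D1:**
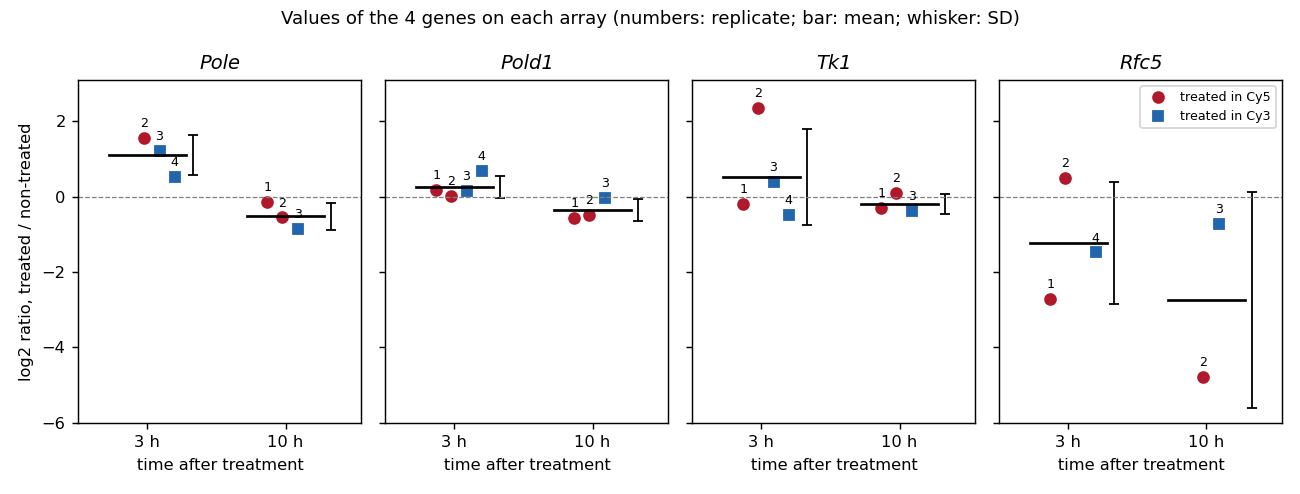
Log2 ratio of treated over non-treated fibroblasts (vertical axis) at 3 h and 10 h for Pole, Pold1, Tk1 and Rfc5, with 1 point for each array, its replicate number above it, circles for the treated sample in Cy5 and squares for it in Cy3; horizontal bars are means and whiskers 1 SD. Pole and Pold1 are above 0 on every measured 3 h array and below 0 on every 10 h array, while the times overlap for Tk1 and Rfc5.

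Tk1, the thymidine salvage kinase, owed its higher mean at 3 h to a single array. Its log2 ratio at 3 h was -0.203, 2.357, 0.383 and -0.480 on replicates 1 to 4, and at 10 h it was -0.303, 0.094 and -0.379 on replicates 1 to 3. Replicate 2 at 3 h was far above the rest, 2 of the 4 arrays at 3 h were below 0, and the times overlapped. The mean log2 ratio was 0.51 ± 1.28 (SD, n = 4) at 3 h and -0.20 ± 0.25 (SD, n = 3) at 10 h. The fitted difference was -0.84 ± 0.68 (SE), and without replicate 2 at 3 h it was -0.116, with the fitted 3 h value at -0.090. The difference was -1.18 with the treated sample in Cy5, the orientation of that array, and -0.33 with it in Cy3. Read as Cy5 over Cy3 the fitted difference was -0.58.

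Rfc5, the clamp loader subunit, had the most negative ratios of the 4 genes and the widest spread. At 3 h its log2 ratio was -2.721 on replicate 1, 0.486 on replicate 2 and -1.480 on replicate 4, with no value on replicate 3. At 10 h it was -4.780 on replicate 2 and -0.730 on replicate 3, with no value on replicate 1. Replicate 2 held both the highest 3 h value and the lowest 10 h value, and the range of the 10 h arrays spanned 2 of the 3 arrays at 3 h. The mean log2 ratio was -1.24 ± 1.62 (SD, n = 3) at 3 h and -2.76 ± 2.86 (SD, n = 2) at 10 h. The difference was -3.66 with the treated sample in Cy5, from 2 arrays and 1 array, and 0.75 with it in Cy3, from 1 array at each time. The fitted difference was -1.77 ± 1.43 (SE), and read as Cy5 over Cy3 it was -2.41. It turned to 0.750 without replicate 2 at 10 h, was -0.654 without replicate 2 at 3 h, and was -3.66 without replicate 4 at 3 h or replicate 3 at 10 h. The dye orientations differed in sign for Rfc5, so these arrays show no stable direction of change between the times.

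**Figure D2:**
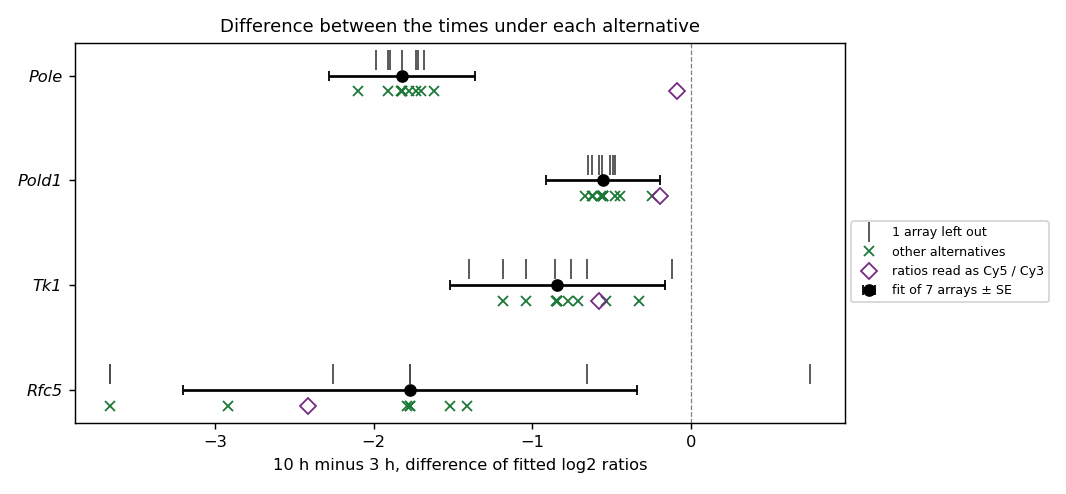
Difference of the fitted log2 ratios, 10 h less 3 h (horizontal axis), for each gene: the fit of all 7 arrays with its SE (black), 1 array left out (grey ticks), the ratios read as Cy5 over Cy3 (diamonds) and other alternatives (crosses); the fit that keeps the repeated extreme value, which put Pole at -6.488, is left off the plot. Pole and Pold1 stay below 0, with a narrow range when a single array is left out. Their diamonds lie nearer 0, at -0.090 for Pole and -0.193 for Pold1. Tk1 reaches -0.116 and Rfc5 crosses to 0.750 when a single array is left out.

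The dye term was not used to choose the genes, but the dyes were unevenly spread over the times, which links it to the difference, so it is given as a description. Without the dye term the fitted difference was -1.62 for Pole, -0.62 for Pold1, -0.71 for Tk1 and -1.52 for Rfc5. The fitted log2 ratio with the treated sample in Cy5 less that with it in Cy3 was 0.61 ± 0.46 (SE) for Pole, -0.39 ± 0.36 for Pold1, 0.79 ± 0.68 for Tk1 and -1.53 ± 1.43 for Rfc5. In limma 0 of 11559 probes, or 0%, had an adjusted p under 0.05 for the dye term, and 732 had an unadjusted p under 0.05. The standard errors of 0.36 to 1.43 were close in size to these differences, so a dye effect of the size of the time differences in Pold1 and Tk1 was not detectable here. The signs of the dye term differed between the genes, positive for Pole and Tk1 and negative for Pold1 and Rfc5.

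Once the constant of each array was taken off, many of the members' values at 3 h lay within 0.0016 of ratios of small whole numbers. Most values of all probes on those arrays did so too. Apart from the repeated extreme value, each array had a most common value, taken as its constant and as the ratio 1 to 1, at 0.45, 0.187, -0.103 and 0.52 on the 3 h arrays and -0.555, -0.4 and 0.632 on the 10 h arrays. With the constant taken off, Pole at 3 h lay at 5 to 2 on replicate 3 and 1 to 1 on replicate 4. Pold1 lay at 5 to 6, 6 to 5 and 10 to 9 on replicates 1, 3 and 4. Tk1 lay at 9 to 2 on replicate 2, the array that set its mean, at 7 to 5 on replicate 3 and at 1 to 2 on replicate 4. Rfc5 lay at 1 to 9 on replicate 1 and 1 to 4 on replicate 4.

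In all, 10 of the 14 measured values of the 4 genes at 3 h lay within 0.0016 of a ratio of whole numbers up to 10, and 2 of the 11 at 10 h, both of Pole, at 4 to 3 and 9 to 10. Over all measured probes the share was 59.5% to 67.7% on the 3 h arrays and 14.6% to 15.8% on the 10 h arrays, while such ratios with this tolerance cover 3.03% of the range they span. The members thus followed their arrays in this respect. Such ratios lie closer together near 0 than far from it, so the 3.03% is not the share to be met by chance. The 3 h arrays also had fewer measured probes, 13262 to 15157 against 16395 to 17766, and a wider spread, with a scaled median absolute deviation of 0.818 to 1.153 against 0.532 to 0.584 log2 units. Intensities were not analysed here, so the signal behind a value is unknown. These features all move with time, and their part in the differences of the 4 genes was not tested.

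**Figure D3:**
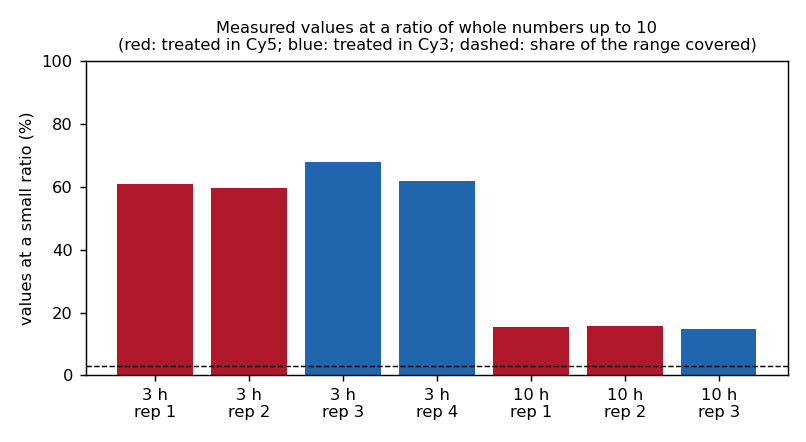
Percentage of the measured values on each array (vertical axis) that lie within 0.0016 of a whole-number ratio, with numbers up to 10 and on the log2 scale, once the array's constant is taken off; red bars have the treated sample in Cy5 and blue bars in Cy3. The 3 h arrays lie at 59.5% to 67.7% and the 10 h arrays at 14.6% to 15.8%. The dashed line is the 3.03% of the range that such ratios cover, which is not a chance level.

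The partners of the 4 proteins did not share a direction. Of polymerase epsilon, the small histone-fold subunits Pole3 and Pole4 were measured and had fitted differences above 0, opposite in sign to Pole. The 2 probes of Pole3 had fitted differences of 1.60 ± 0.93 (SE) and 0.36 ± 0.37, and Pole4 had 0.36 ± 0.46. The times overlapped for Pole4 and for the second Pole3 probe, and the difference of Pole4 was 0.755 with the treated sample in Cy5 and -0.226 with it in Cy3. The larger Pole3 value came with 4.124 on replicate 2 at 10 h. That probe lay above its measured 3 h values on every 10 h array, at 0.734, 4.124 and 1.064 against 0.450, 0.187 and 0.481. Of these, 0.450 and 0.187 are the constants of their arrays. Replicate 4 at 3 h held the repeated extreme value, -16.09, and was treated as not measured. Both probes of Pole3 were above 0 on 3 of 3 arrays at 10 h.

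Of polymerase delta, the accessory subunit Pold2 had the same sign as Pold1, at 0.11 ± 0.37 (SD, n = 4) at 3 h and -0.22 ± 0.16 (SD, n = 3) at 10 h, and was below 0 on 3 of 3 arrays at 10 h. Pold4, the smallest subunit, was above 0 on all 7 arrays, at 0.28 ± 0.31 at 3 h (n = 4) and 0.22 ± 0.07 at 10 h (n = 3), with a fitted difference of -0.03 ± 0.37 (SE). Pold3 was measured on 1 array at each time and was not fitted.

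The clamp, Pcna, had 2 probes, and neither had the 3 arrays at 3 h that the fit required. The probe with the larger difference was at 2.187 and 1.483 on replicates 2 and 3 at 3 h and at -0.061 and -0.088 on replicates 1 and 3 at 10 h, so its times did not overlap. Its other 3 h arrays held the repeated extreme value, 17.06 on replicate 1 and -16.09 on replicate 4. On every array that value was positive with the treated sample in Cy5 and negative with it in Cy3, for all probes that held it. The second probe of Pcna was at 1.450 and -0.480 at 3 h and 0.332 and -0.176 at 10 h, and its times overlapped. Among the loader subunits, Rfc4 had a fitted difference of -0.97 ± 1.24 (SE) and Rfc1, the large subunit, -0.11 ± 0.44. Rfc4 was at 0.280, 2.994 and 0.278 on replicates 1, 2 and 4 at 3 h, with the repeated extreme value on replicate 3. Its 10 h values ran from -2.039 to 1.594, so its times overlapped. The Rfc4 difference was -1.86 with the treated sample in Cy5 and 0.81 with it in Cy3.

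In nucleotide supply, Tk2, the mitochondrial thymidine kinase, went from 0.91 ± 1.02 (SD, n = 4) to 0.39 ± 1.02 (SD, n = 3), with 1.549 on replicate 1 at 10 h. Its fitted dye term of 1.46 ± 0.51 (SE) was larger than its difference between the times of -0.77 ± 0.51. The large subunit of ribonucleotide reductase, Rrm1, had a fitted difference of -0.36 ± 0.45, and the 2 probes of its small subunit, Rrm2, had -0.07 ± 0.46 and -0.46 ± 0.38. Rrm1 and the second Rrm2 probe were below 0 on 3 of 3 arrays at 10 h. No probe here was named for Pole2, Rfc2, Rfc3 or Tyms alone.

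**Figure D4:**
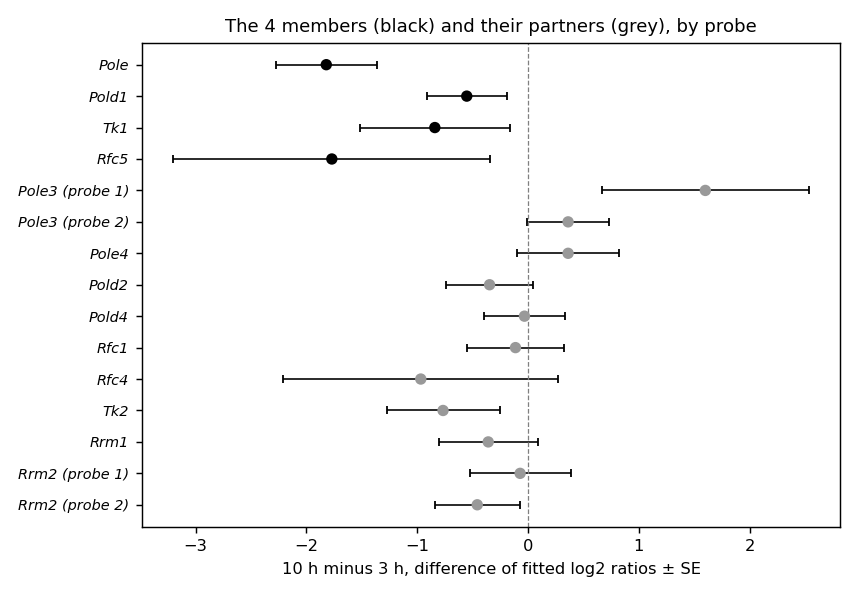
Fitted difference of the log2 ratios, 10 h less 3 h, with its SE (horizontal axis), for each fitted probe of the 4 genes (black) and of their partner subunits and enzymes (grey). The 4 chosen genes lie at -1.82 to -0.55, while Pole3 and Pole4 lie above 0 and the other partners between -0.97 and -0.03.

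Across the pathway, 7 lists held 71 replication genes by role, of which 40 were in the fit. With the 4 chosen genes set aside, 36 were left, and in limma 0 of these 36 genes passed in either direction at 3 h, at 10 h or in the difference. The background was the same over all 11559 probes, of which 0, or 0%, passed at each time and 0, or 0%, in the difference, with 1577, 448 and 938 at an unadjusted p under 0.05. The 36 other replication genes had a median difference of -0.021, with 19 below 0 and 17 above. The median over all 6573 genes fitted was 0.109, with 2830 below 0 and 3743 above. Relative to all genes the other replication genes thus lay at -0.13, and at -0.011 with the ratios read as Cy5 over Cy3.

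By role, the polymerase delta list was below 0 in the difference for 3 of 3 genes, the clamp and loader list for 3 of 4 and the nucleotide supply list for 7 of 9. The polymerase epsilon list was below 0 for 1 of 3, Pole itself, with a median of 0.362. These 4 lists each hold a chosen gene. The origin licensing and helicase list, which includes the Mcm, Gins and Orc genes and none of the 4, was below 0 for 8 of 14 genes, with a median of -0.093. The lists of polymerase alpha and primase, at 0 of 2, and of single-strand binding, Okazaki fragment maturation and topoisomerases, at 1 of 5, were mostly above 0. Ordered by the fitted difference among the 40 genes, Pole was the second lowest, Rfc5 the third, Tk1 the seventh and Pold1 the ninth. The lowest was Shmt1, a serine hydroxymethyltransferase that feeds folate carbon to thymidylate synthesis, at -2.06 over 2 probes. Orc5, an origin recognition subunit, at -1.21, and Dbf4, the activator of the Cdc7 kinase, at -1.17, also lay below Tk1. At the other end were Orc3 at 1.48 and Pole3 at 0.98 over 2 probes.

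**Figure D5:**
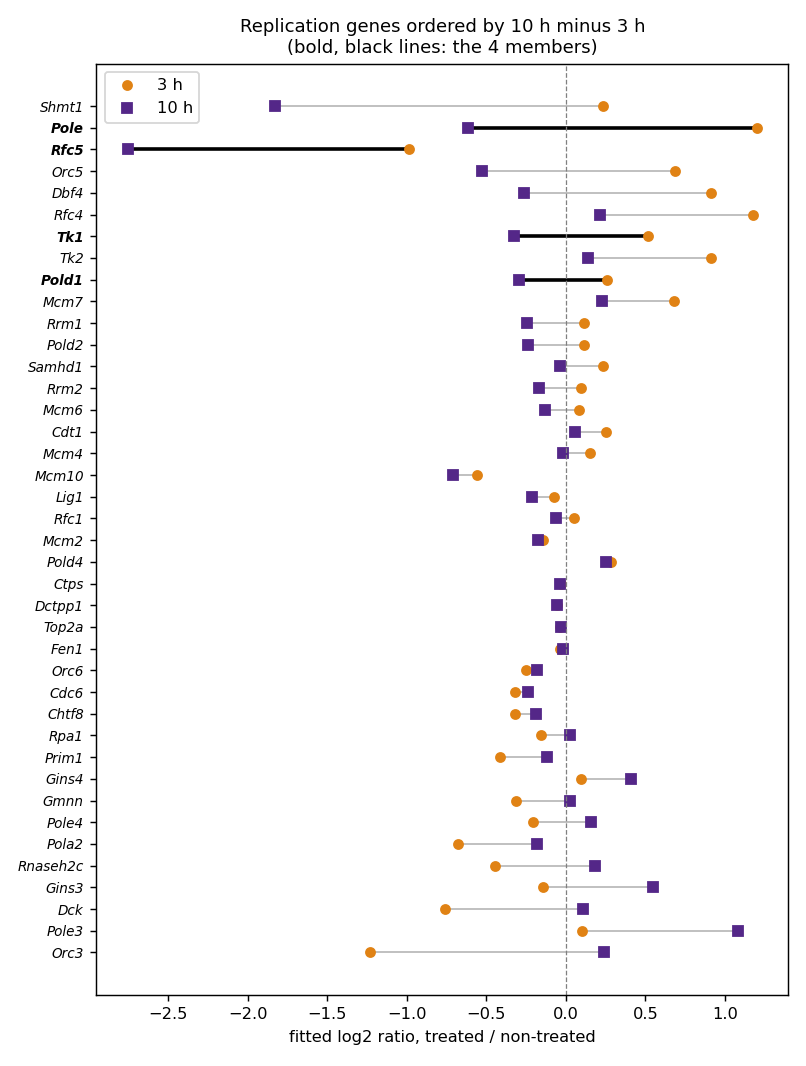
Fitted log2 ratio, treated to non-treated, at 3 h (circles) and 10 h (squares) for the 40 replication genes in the fit, ordered from the lowest to the highest difference of 10 h less 3 h; the 4 chosen genes are in bold with black lines. The chosen genes lie among the 9 lowest differences, next to Shmt1, Orc5, Dbf4, Rfc4 and Tk2, and the other genes lie on both sides of 0.

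Lists other than the 7 replication lists are given for comparison. Genes of G2/M and mitosis were below 0 in the difference for 7 of 7 fitted genes, with a median of -0.341. The G1/S regulators were below 0 for 6 of 10, with a median of -0.084. Repair and translesion polymerases were above 0 for 7 of 7, with a median of 0.56. Markers of other cell types were above 0 for 6 of the 6 fitted among 19 listed, with a median of 0.64, and the fibroblast markers were below 0 for 7 of 10, with a median of -0.183. In limma 0 genes of these lists passed, and the part of the marker lists in the members' values was not tested.

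The genes whose values followed Pold1 and Tk1 most closely over the 7 arrays are given as a description, since 7 arrays of shared dye orientation and time leave many probes with a like pattern. Against Pold1, among 4731 probes with 1 symbol and values on all arrays, the highest Pearson correlations were those of Mprip, which binds myosin phosphatase, at 0.957, of Acta2, the smooth muscle actin, at 0.945 and of Ntrk2, a neurotrophin receptor, at 0.943. Against Tk1 they were those of Dnajc25 at 0.953, Psmd11, a subunit of the proteasome cap, at 0.95 and Mfap3 at 0.948. A correlation above 0.9 was reached by 11 probes against Pold1 and 14 against Tk1. Each of the 3 followers of Tk1 had its highest value on replicate 2 at 3 h, at 3.509, 2.187 and 2.509, as Tk1 did. None of these 6 genes was in the replication lists. Pole and Rfc5 were not measured on all arrays and were not compared in this way.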

How the data were processed

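Per the labels' protocols, RNA was reverse transcribed, labelled indirectly with Cy3 or Cy5, and the treated and non-treated cDNAs shared an array. The deposited table holds log2 ratios for 20355 probes on 7 arrays. The log base was read from the values. Not given in the sources used here were the software of the scanner, any background correction or normalization, and the ratio direction. Values over 15 in size, 1 repeated value per array, were treated as missing. Platform annotation named 14030 probes by 1 symbol, 5 by several and left 6320 unnamed. Gene identifiers of 13994 probes were found in RefSeq (GRCm38.p6) and 0 symbols changed.

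The model held 2 time means and a dye term. It was fitted in limma (version 3.58.1, under R 4.3.3, by lmFit and then eBayes) to probes measured on 3 or more of the 3 h arrays and 2 or more of the 10 h arrays, and tested two-sided with Benjamini-Hochberg adjustment over 11559 probes at 0.05. Each time point was a ratio against 0, so the spread of the non-treated channel was not estimated apart from that of the treated channel. If the same non-treated RNA served all arrays, spread between control cultures is left out. The difference was fitted as a coefficient of its own, so that missing values are handled exactly. The script was tested on simulated data. The members and lists were chosen with earlier results of these data known. Named genes were the 4 members, their complex partners whatever their values, and the 3 probes most correlated with each fully measured member; Shmt1, Orc5, Dbf4 and Orc3 were named after their values were seen. Depth has no counterpart on arrays, and their number limits the precision. Alternatives changed the dye term, direction, centring, scaling, filters and arrays used.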

Additional observations from a re-analysis of the deposited data

Results flagged for a closer look

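Pole was above 0 on every measured array at 3 h and below 0 on every array at 10 h, with means that differed by -1.62 on the log2 scale (n = 3 and 3). Pold1 did the same, with means that differed by -0.62 (n = 4 and 3). A probe of Pcna, measured on 2 arrays at each time, also did so, with a difference of -1.91, while the times of the second Pcna probe overlapped. Neither Pcna probe was in the fit, so the shares given above for the fitted probes do not cover them. Each change of sign between the times was noted from the values and was not tested for these genes, Pole and Pold1 having been chosen on it. The lowest 3 h value of Pole, 0.520 on replicate 4, was that array's constant. With the constants taken off, the times of Pole and of Pold1 overlapped. Rrm1 had 1 array at 3 h far from the others, replicate 3 at -0.816, in 11 groups of 4 arrays examined, and chance alone puts about 1 in 20 such groups past the limit used.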

How the results depend on the processing

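The fitted difference between the times was below 0 for Pole in 18 of 18 alternatives that could be fitted, for Pold1 and Tk1 in 19 of 19 each and for Rfc5 in 15 of 16. The alternatives refit the arrays on which the genes were chosen, so these counts describe the sign and do not test it. Some values lay near 0 beside their SE, such as -0.116 ± 0.485 for Tk1 without replicate 2 at 3 h. With the ratios read as Cy5 over Cy3, the difference was -0.090 ± 0.873 (SE) for Pole and -0.193 for Pold1. In that reading the fitted 3 h value was -0.159 for Pold1 and 0.389 for Rfc5, and the dye term of Pold1 was 0.086. The median difference of the other replication genes less all genes was then -0.011. With each array's constant taken off, an alternative chosen after seeing the data, the difference of Pold1 was -0.244 and its 3 h value -0.006. With the repeated extreme values kept, the difference of Pole was -6.488, and limma called 6 probes at 3 h and 33 for the dye term, against 0. Leaving out single arrays, the difference ran from -1.984 to -1.684 for Pole, -0.649 to -0.479 for Pold1, -1.396 to -0.116 for Tk1 and -3.662 to 0.75 for Rfc5. The 3 h value ran from -0.09 to 0.977 for Tk1 and -2.1 to 0.908 for Rfc5, the dye term of Rfc5 from -4.05 to 0.362, and the median of the other replication genes from -0.204 to -0.088, while limma called 0 probes in each comparison. Same-numbered arrays of the times correlated in their deviations from the group means at 0.028, 0.031 and 0.091. The numbers were therefore not taken to pair the arrays. Over 6369 probes, the values of arrays of the same time correlated weakly. At 3 h the correlations ran from 0.006 for replicates 1 and 3 to 0.259 for replicates 1 and 2. At 10 h they were 0.107 for replicates 1 and 2, -0.05 for 1 and 3, and -0.138 for 2 and 3. The 10 h pairs below 0 were those of opposite dye orientation. At 3 h the pairs of opposite orientation were all above 0, at 0.006, 0.112, 0.031 and 0.105. Those of the same orientation were at 0.259 and 0.111. Each mean of a gene thus rests on arrays that agreed little. What this says of the ratio direction was not tested. With a replicate block in place of the dye term, the difference was -2.10 for Pole, -0.48 for Pold1 and -1.04 for Tk1, 0 probes passed, and Rfc5 could not be fitted.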
